A study of Rattus norvegicus with 13 samples.

Results

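The genes described here were Stat3 and a set of genes known to respond to STAT3 or to NF-κB, measured in rat lenses made cataractous by galactose. The list held 10 genes (Stat3, Socs3, Zfp36, Ccl2, Cxcl1, Cebpb, Cebpd, Nfkbia, Il6 and Lif), listed by name as known response genes of these factors. Of these, 9 were among the 18166 genes with a probe set assigned to 1 gene, each through a single probe set, and Cebpd was not analysed here. Testing was limited to genes with a log2 signal of 5 or more somewhere among the arrays, which left 7 of the 9 genes, out of 6778 in all. Cxcl1 and Il6 stayed under that level in all 13 arrays.

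Lenses of Sprague Dawley rats (six-week-old males according to the methods) were cultured outside the body, and their RNA was hybridised to 13 GeneChip Rat Gene 2.0 ST arrays. The groups were a control array (no galactose, 4 days), 3 galactose Day 4 arrays and 3 galactose Day 6 arrays at 30 mM galactose. A single array each was made for 6 inhibitor treatments, all with 30 mM galactose and ending on Day 6: C646 at 40 µM, CBP30 at 10 µM, CPTH2 at 80 µM, C646+CPTH2, CBP30+CPTH2 at the same concentrations, and TH1834 at 50 µM. C646 and CBP30 are directed at p300 and CBP, CPTH2 at Gcn5 and TH1834 at Tip60, all of them histone acetyltransferases. The sample name of the CBP30+CPTH2 array and the methods name CBP30, whereas another of its labels names CPTH2 at both 10 and 80 µM, so its composition follows the sample name. The concentration of CBP30 is that of the labels and methods; a supplementary list of the inhibitors gives a lower one. Inhibitors were added in DMSO after the opacity had formed, and the labels state neither whether the galactose arrays received DMSO nor whether replicates came from separate animals. The p-values therefore measure the spread between these arrays, and a treatment with a lone array was assumed to vary like the galactose arrays. The control ended on Day 4, so galactose and the longer culture cannot be told apart in the Day 6 comparison.

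STAT3 is a transcription factor that waits in the cytoplasm until a receptor of the gp130 family, bound by a cytokine such as interleukin 6 or LIF, lets JAK kinases phosphorylate it; it then enters the nucleus and switches on genes that include its own brake, Socs3. NF-κB is held in the cytoplasm by inhibitors such as IκBα, the product of Nfkbia, and on release drives chemokine and cytokine genes. The lens has no blood vessels and few immune cells, and its epithelium and fibres carry receptors for such cytokines. In the study itself, Stat3, Zfp36, Ccl2 and Lif were selected on these same arrays for rising with galactose and falling with an effective treatment, so their directions here are not independent evidence for that selection.

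The starts of the genes are shown first, because Stat3 and Zfp36 were the members called higher than the control with galactose and because both are described as STAT3 targets. RefSeq promoters (rat build GRCr8, 250 bases before to 50 after the start) were at hand for 7 of the 10 genes. Both strands were searched for TTCNNNGAA (STAT), GGG and TTTCC spaced by 2 free bases (NF-κB) and TTGCNNAA (C/EBP), and matches are printed in capitals; a match is a description of letters and not a bound site. The Zfp36 promoter lies at chr1:92799059-92799358 on the minus strand and the Stat3 promoter at chr10:86363310-86363609 on the minus strand.
Zfp36: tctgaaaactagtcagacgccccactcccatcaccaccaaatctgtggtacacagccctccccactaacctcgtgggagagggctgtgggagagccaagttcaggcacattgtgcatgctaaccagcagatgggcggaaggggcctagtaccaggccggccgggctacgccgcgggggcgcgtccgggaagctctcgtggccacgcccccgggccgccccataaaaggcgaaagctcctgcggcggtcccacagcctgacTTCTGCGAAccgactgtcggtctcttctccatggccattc
Stat3: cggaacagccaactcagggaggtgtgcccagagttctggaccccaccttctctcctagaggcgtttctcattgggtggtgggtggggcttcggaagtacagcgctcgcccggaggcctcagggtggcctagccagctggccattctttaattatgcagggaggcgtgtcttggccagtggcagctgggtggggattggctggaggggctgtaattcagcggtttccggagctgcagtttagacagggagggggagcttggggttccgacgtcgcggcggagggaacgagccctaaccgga
The STAT letters were present in 1 of the 7 promoters, that of Zfp36, where they begin 10 bases after the start, and in 8.87% of all 33469 promoters. Only these windows were searched, and the annotated starts were not checked. Letters elsewhere near Socs3 or another gene would therefore be missed, and the count does not show that Socs3 lacks them. The Stat3 window held none of the 3 motifs. The NF-κB letters were found in 3 of the 7 promoters, those of Il6, Nfkbia and Cxcl1, and in 1.53% of all promoters. The genes were listed as known response genes, so this contrast is no result about these lenses. Il6 and Cxcl1 also stayed under the level for testing in every array. The sites of Il6, Nfkbia and Cxcl1 are shown with 10 bases on either side, since these genes stand for the NF-κB arm of the list.
Il6: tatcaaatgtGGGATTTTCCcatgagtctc
Nfkbia: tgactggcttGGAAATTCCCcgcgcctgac
Cxcl1 site farther from the start: ccggttgtggGGAAACACCCtgtgctccgg
Cxcl1 site nearer to the start: cctgtgctccGGGAATTTCCctggcctgga
The Nfkbia match and the farther Cxcl1 match lie on the opposite strand and are printed here as the gene's strand reads. The C/EBP letters occurred in 1 of the 7 promoters, that of Il6, and in 10.6% of all promoters.

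Signals in this report are log2 values, so differences are given on the log2 scale, with a standard error (SE) and a 95% interval from a limma fit over all 13 arrays, and p-values are adjusted over all 6778 genes with a threshold of 0.05. Where arrays or groups are said not to overlap, the share of all genes that did so was not counted, so such statements describe values only. Array medians over the tested genes lay between 5.62 and 5.89. Mip, Bfsp1 and Lim2, made by lens fibres, had a mean signal between 11.4 and 11.8 in every array. The 6 markers of lens epithelium fixed for this work (Pax6, Foxe3, Cdh1, Cdh2, Aqp1 and Pdgfra) had a mean of 7.72 in the control, 5.78 to 6.79 in the galactose arrays, 6.94 with TH1834, 6.28 with CBP30+CPTH2 and 5.13 with C646+CPTH2, the lowest of the 13. In such bulk RNA, fewer cells of a type and less RNA per cell cannot be told apart. Of 18 macrophage and immune markers, 3 reached the level for testing, and the mean over the list ran from 3.07 to 3.46; no vascular endothelial or pigment epithelial marker reached it.

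Stat3 itself was the most sharply separated member. Its log2 signal was 6.10 in the control. It was 8.10, 7.89 and 8.17 on galactose Day 4 and 8.04, 8.18 and 8.48 on Day 6. The 6 galactose arrays thus lay close together and all above the control. Stat3 rose by 1.96 on Day 4 (SE 0.24, adjusted p = 0.00433) and by 2.14 on Day 6 (SE 0.24, adjusted p = 0.00301). The inhibitor arrays spread far more widely: 8.38 with C646, 8.53 with CBP30, 8.73 with CPTH2, 9.04 with C646+CPTH2, 8.16 with CBP30+CPTH2 and 6.69 with TH1834. The TH1834 array was the only galactose-exposed array outside the upper cluster, whereas the C646+CPTH2 array held the highest Stat3 signal of the 13.

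Zfp36 encodes tristetraprolin, an RNA-binding protein that speeds the decay of AU-rich cytokine messages. Its log2 signal was 5.90 in the control, 8.05, 7.12 and 8.01 on Day 4 and 8.10, 8.85 and 8.10 on Day 6. No galactose array overlapped the control, although Day 4 replicate 2 lay apart from the other Day 4 arrays. Zfp36 rose by 1.83 on Day 4 (SE 0.42, adjusted p = 0.0484) and by 2.45 on Day 6 (SE 0.42, adjusted p = 0.0166). The Day 6 difference was the 17th highest of all genes tested and that of Stat3 the 25th. The Day 4 call sat at the threshold and was lost on leaving out Day 4 replicate 1 (adjusted p = 0.0724), Day 4 replicate 3 (0.117), Day 6 replicate 1 (0.0544), Day 6 replicate 2 (0.0533) or Day 6 replicate 3 (0.0755), and also without the filter on signal (0.112). With the inhibitors Zfp36 was 8.40 with C646, 8.72 with CBP30, 8.65 with CPTH2 and 8.40 with TH1834. It was 7.22 with C646+CPTH2 and 6.88 with CBP30+CPTH2, both below every Day 6 array. The value of 7.22 lay within the Day 4 range, 7.12 to 8.05.

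Ccl2 encodes the chemokine MCP-1, which draws monocytes and is a textbook NF-κB target. Its log2 signal was 5.41 in the control, 6.14, 6.95 and 7.24 on Day 4 and 7.04, 7.70 and 6.72 on Day 6. All 6 galactose arrays were above the control, with more spread than for Stat3. The differences from the control were 1.37 on Day 4 (SE 0.46, adjusted p = 0.121) and 1.75 on Day 6 (SE 0.46, adjusted p = 0.0593), neither past the threshold. Without Day 4 replicate 1 the Day 6 difference passed it (adjusted p = 0.0296). Among the inhibitor arrays Ccl2 was 6.19 with C646, 6.16 with CBP30, 5.66 with CPTH2, 4.14 with C646+CPTH2, 5.08 with CBP30+CPTH2 and 6.91 with TH1834. The combinations were the only galactose-exposed arrays below the control, and TH1834 the only inhibitor array within the Day 6 range.

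**Figure D1:**
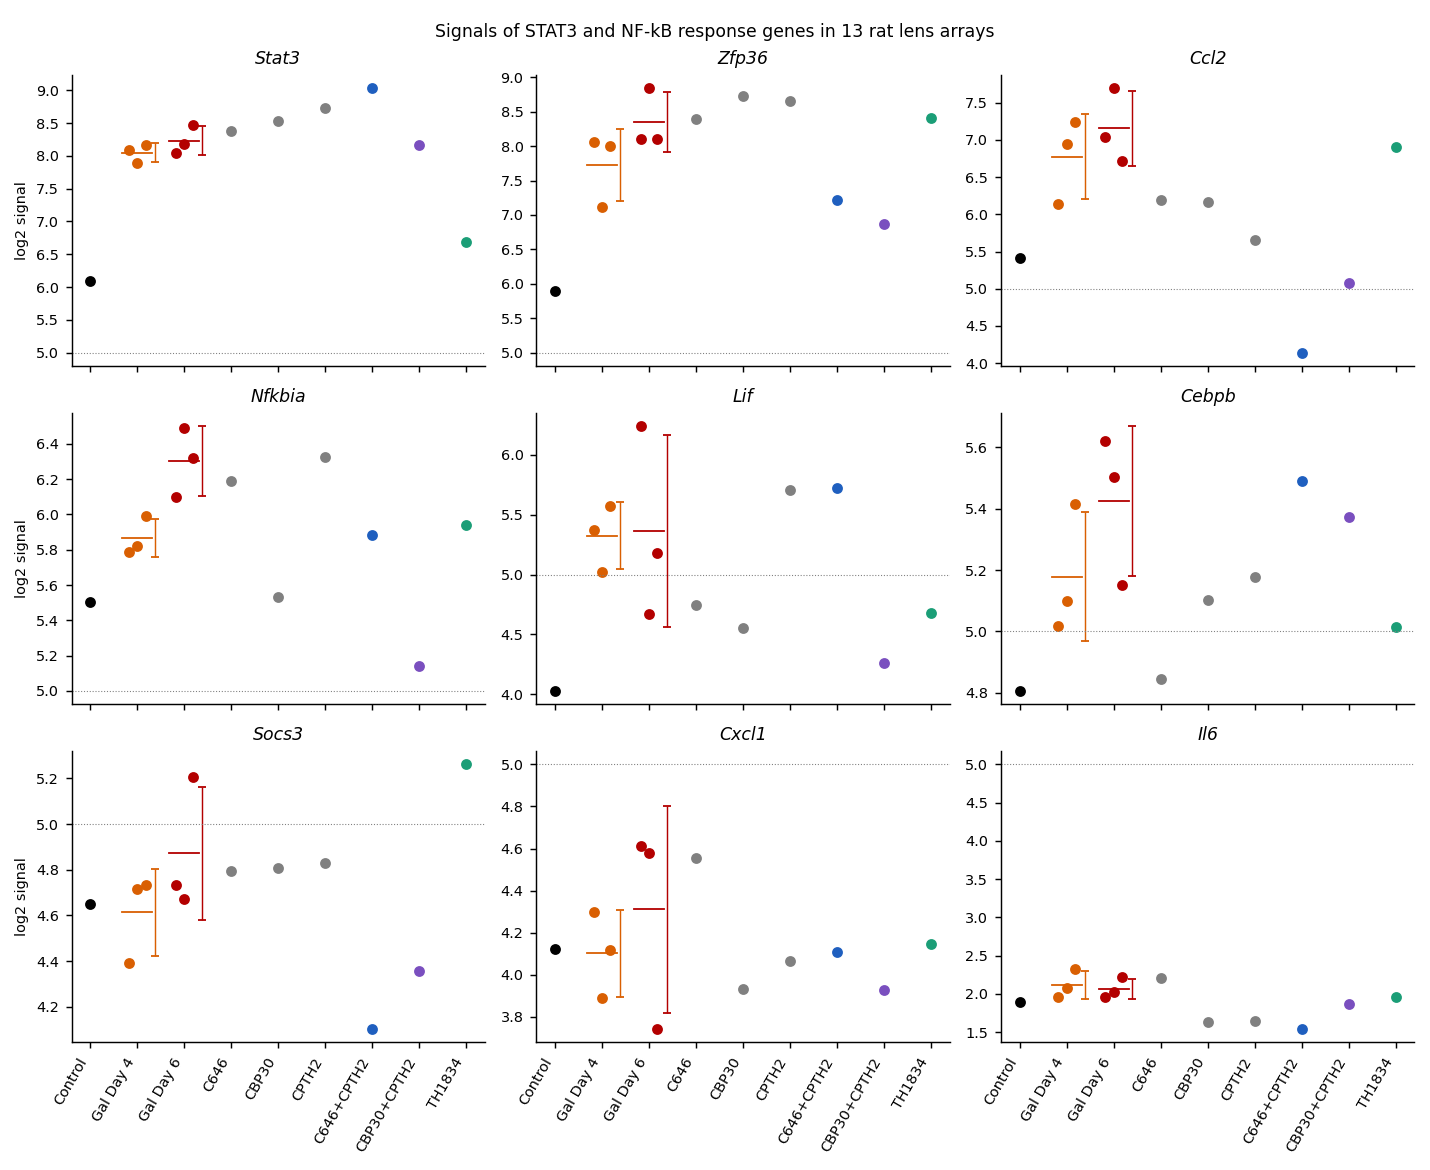
Log2 signal of the 9 measured genes in each array (vertical axis, with its own range in each panel) by group (horizontal axis); each point is an array, the short bar is the mean of 3 galactose arrays, the whisker beside it is ± SD, and the dotted line marks the level of 5 needed for testing. Stat3 is at 6.10 in the control and 6.69 with TH1834 against 7.89 to 9.04 in the other arrays, whereas Ccl2 is lowest with C646+CPTH2 at 4.14.

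The remaining members with a brake or signalling role differed less from the control. Nfkbia, the feedback inhibitor of NF-κB, was 5.50 in the control, 5.79, 5.82 and 5.99 on Day 4 and 6.10, 6.49 and 6.32 on Day 6. The values of the 3 groups did not overlap, but the share of all genes ordered in this way was not counted. The differences were small, 0.36 on Day 4 (SE 0.23, adjusted p = 0.391) and 0.80 on Day 6 (SE 0.23, adjusted p = 0.0729), neither past the threshold. With the inhibitors Nfkbia was 6.19 with C646, 5.53 with CBP30, 6.32 with CPTH2, 5.88 with C646+CPTH2, 5.14 with CBP30+CPTH2 and 5.94 with TH1834. The CBP30+CPTH2 array was the lowest of the 13, and the CBP30 array was close to the control.

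Lif, a cytokine of the gp130 family that acts upstream of STAT3, was 4.03 in the control, 5.37, 5.02 and 5.58 on Day 4 and 6.24, 4.67 and 5.18 on Day 6. It reached 5 in 7 arrays, none of them the control, so it entered the test only through arrays where it was high. The differences were 1.30 on Day 4 (SE 0.50, adjusted p = 0.169) and 1.34 on Day 6 (SE 0.50, adjusted p = 0.149). Day 6 replicate 1 lay above the other Day 6 arrays, and without it the Day 4 difference passed the threshold (adjusted p = 0.0489). In the inhibitor arrays Lif ran from 4.26 with CBP30+CPTH2 to 5.73 with C646+CPTH2, all above the control.

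Cebpb encodes C/EBPβ, a transcription factor of the acute-phase response. It was 4.81 in the control, 5.02, 5.10 and 5.42 on Day 4 and 5.62, 5.50 and 5.15 on Day 6. The control was the lowest array, and the differences of 0.37 and 0.62 had adjusted p = 0.451 and 0.189. In the inhibitor arrays Cebpb ran from 4.84 with C646 to 5.49 with C646+CPTH2.

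Socs3, the suppressor of cytokine signalling that STAT3 switches on, did not follow Stat3. It was 4.65 in the control, 4.39, 4.71 and 4.73 on Day 4 and 4.73, 4.67 and 5.21 on Day 6, so that the galactose arrays lay on both sides of the control. Its differences were -0.04 on Day 4 (95% interval -0.65 to 0.57) and 0.22 on Day 6 (-0.39 to 0.83). Its highest signal, 5.26, was in the TH1834 array, where Stat3 was low, and its lowest, 4.10, in the C646+CPTH2 array, where Stat3 was highest. Over the 13 arrays the Pearson correlation of Socs3 with Stat3 was -0.31, a description over arrays that share the galactose treatment. Socs3 reached 5 in 2 arrays only.

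A cytokine and a chemokine gene stayed at the foot of the range. Il6, whose product is the best known activator of STAT3, had log2 signals between 1.54 and 2.32 over all arrays. The chemokine gene Cxcl1 ran from 3.74 to 4.61, with its lowest and highest values both on Day 6. Neither was in the main test; in a fit of all genes without the filter, Il6 differed from the control by 0.17 on Day 6 (95% interval -0.35 to 0.69) and Cxcl1 by 0.19 (-0.61 to 0.98). At such signals a change in the message may not be detectable.

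In the galactose comparisons as a whole, 2 of the 7 tested members, Stat3 and Zfp36, were called higher than the control on Day 4, when 2.33% of all genes were. The same 2 were called on Day 6, when 2.8% were. No member was called lower, against 1.45% of genes on Day 4 and 2.69% on Day 6. Lif, Cebpb and Socs3 were under 5 in the control and could be tested only through arrays where they were higher, which tilts their differences from the control upward, so no median over the members is given. The comparisons share the lone control array, so they are not separate evidence. The epithelial markers, 7.72 in the control and at most 6.79 in the galactose arrays, moved the opposite way in the same comparisons, and their part in the result was not tested.

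**Figure D2:**
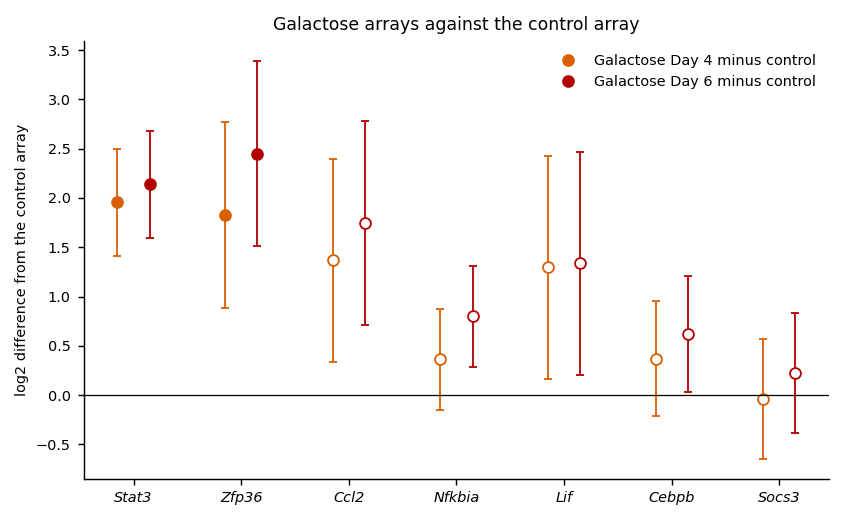
Log2 difference of galactose Day 4 and Day 6 from the control array (vertical axis) for the 7 tested genes (horizontal axis); points are estimates, whiskers 95% intervals, and filled points have an adjusted p under 0.05. Only Stat3 (1.96 and 2.14) and Zfp36 (1.83 and 2.45) are filled, and the Socs3 intervals span 0.

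Between the galactose days no member was called: 0 of 7, with 0% of all genes called by limma and 363 genes at an unadjusted p under 0.05. The differences ran from 0.04 for Lif, which was negative without Day 4 replicate 2 (-0.11) or Day 6 replicate 1 (-0.40), to 0.62 for Zfp36, and 1 of them, Nfkbia at 0.44 (95% interval 0.08 to 0.80, adjusted p = 0.883), had an unadjusted p under 0.05. The interval for Stat3, -0.20 to 0.57, leaves room for a moderate further rise.

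The other genes of these pathways were taken from 8 lists holding 116 genes, of which 109 had a probe set and 56 were tested. On Day 4, 1 was called higher and 1 lower, and on Day 6 again 1 higher and 1 lower. These counts of 1 in 56 were near the shares of all genes called in the same comparisons. A gene under 5 in the control could be tested only where another array was higher, so the signs and medians of the lists describe the tested genes only.

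Among the gp130 cytokines and receptors, 6 of 12 genes were tested. Lifr, the receptor subunit for LIF, was 5.45 in the control, 4.46, 4.45 and 4.24 on Day 4 and 3.84, 4.16 and 4.17 on Day 6. It was the list's only call, and it fell by 1.07 on Day 4 (SE 0.23, adjusted p = 0.0408) and by 1.40 on Day 6 (SE 0.23, adjusted p = 0.0136). Lifr lay under 5 in every galactose-only array, and it could be tested only through the control and TH1834 arrays, where it was higher. It was 4.35 to 4.63 with the other inhibitors and 5.22 with TH1834, a difference of 1.16 from Day 6 (adjusted p = 0.149). Il6st, the gp130 subunit shared by these receptors, was 7.28 in the control and differed by 0.16 on Day 6 (adjusted p = 0.718).

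Among other STAT3 response genes, 11 of 18 were tested. Bcl2l1, which encodes the survival protein Bcl-xL, was 5.03 in the control, 6.06, 5.75 and 5.86 on Day 4 and 5.85, 6.09 and 6.06 on Day 6. Bcl2l1 rose by 0.96 on Day 6 (SE 0.22, adjusted p = 0.0415), and its Day 4 difference was 0.85 (adjusted p = 0.0666). The medians over the 11 were 0.26 and 0.47, beside 0.05 and -0.01 over all genes, and 9 of the 11 were positive on Day 4 and 8 on Day 6. Hif1a, Timp1 and Vegfa had the highest mean signals of the list, and none of them was called. Hif1a was 9.18 in the control and 9.53 on average on Day 6, and Timp1 was 9.13 and 10.19. Vegfa went the other way, from 7.65 in the control to 6.84 on average on Day 4 and 6.82 on Day 6. None of the 4 tested JAK and STAT genes and none of the 6 tested SOCS family and related brakes was called on either day.

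Of the 32 NF-κB response genes beside the members, 6 reached the level for testing. None was called on either day. Of these 6, Icam1, Birc2, Csf1 and Cx3cl1 were under 5 in the control and could be tested only through arrays where they were higher, so the signs of the list against the control are not described. Icam1, an adhesion molecule for leukocytes, showed the widest difference: 4.78 in the control, 5.61, 5.61 and 6.66 on Day 4 and 6.07, 5.45 and 6.43 on Day 6, or 1.20 on Day 6 (SE 0.47, adjusted p = 0.163). No galactose array overlapped the control, but the galactose arrays differed among themselves by about as much. The 12 tested genes for NF-κB subunits, inhibitors and kinases had medians of 0.16 and 0.12 and no call.

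The C/EBP relatives gave 1 call. Ddit3, the stress-induced factor CHOP, was 9.22 in the control, 10.60, 10.49 and 10.50 on Day 4 and 10.03, 9.29 and 9.97 on Day 6. Ddit3 rose by 1.31 on Day 4 (SE 0.30, adjusted p = 0.0477), whereas its Day 6 difference was 0.55 (adjusted p = 0.306). The difference between the days was not called. The 8 tested relatives of Zfp36 and other proteins that bind AU-rich messages had medians of -0.16 and -0.31 and no call. On Day 6, 3 of the 8 had a positive difference, among them the family members Zfp36l1 and Zfp36l2. Zfp36l1 was 5.25 in the control, 5.97 on average on Day 6, 4.43 with C646+CPTH2, 4.61 with CBP30+CPTH2 and 5.35 with TH1834. For Zfp36l2 these values were 5.12, 5.70, 5.07, 5.16 and 5.14.

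**Figure D3:**
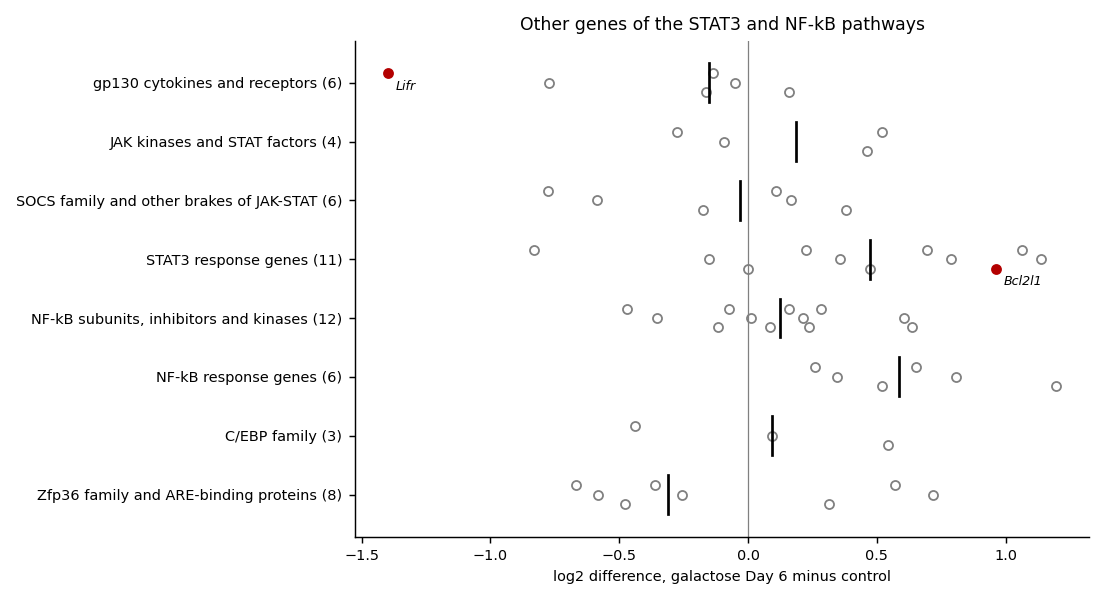
Log2 difference of galactose Day 6 from the control (horizontal axis) for the 56 tested genes of 8 pathway lists (vertical axis, with the number tested in each); each point is a gene, the black bar is the median of the list, and filled points have an adjusted p under 0.05. Lifr at -1.40 and Bcl2l1 at 0.96 are the only filled points. Genes under 5 in the control were tested only where another array was higher, which tilts their points to the right. Lifr reached 5 only in the control and with TH1834, which tilts its point to the left.

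The genes whose signals ran most like Stat3 over the 13 arrays were Cdc42se2 (Pearson r = 0.936), Nfe2l2 (0.935), Slc16a6 (0.931), Tuba1c (0.927) and Pramef8 (0.921). Over the 12 arrays without the control r was 0.929, 0.857, 0.913, 0.904 and 0.874. Slc16a6, for example, had a log2 signal of 3.10 in the control, a mean of 8.20 on Day 6, 6.00 with TH1834 and 8.77 with C646+CPTH2. Those most like Zfp36 were Tubb3 (0.870), Mt2A (0.861), Fbxo30 (0.828), Nasp (0.825) and Lig1 (0.824), and over the 12 arrays without the control their r lay between 0.626 and 0.731. These genes were picked from 6778 for their likeness, and the arrays share treatments, so the values are descriptive. Between Stat3 and Zfp36 themselves r was 0.47, and between Stat3 and Ccl2 it was -0.16.

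The comparison of each inhibitor array with the 3 galactose Day 6 arrays asked whether these genes moved back once the lens was treated. All 6 comparisons use the same Day 6 arrays. C646, CBP30 and CPTH2 alone gave no member call: 0 of 7 each, where limma called 0%, 0% and 0.0295% of all genes, and 0, 1 and 1 members had an unadjusted p under 0.05, as did 275, 1072 and 861 of all genes. Stat3 differed from Day 6 by 0.15, 0.29 and 0.49, and Zfp36 by 0.05, 0.37 and 0.30. The Ccl2 differences were negative, at -0.96 for C646, -0.99 for CBP30 and -1.49 for CPTH2, with adjusted p = 0.995, 0.333 and 0.311. With CPTH2, where the median of all genes was 0.17 above Day 6, the Ccl2 interval ran from -2.52 to -0.46. The members with an unadjusted p under 0.05 were Nfkbia with CBP30 (-0.77) and Ccl2 with CPTH2.

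C646+CPTH2 gave the only member call among the treatments. Ccl2 fell by 3.01 (SE 0.46, 95% interval -4.04 to -1.98, adjusted p = 0.0257), the 5th lowest difference of all genes, and was thus 1 of 7 members called lower where 0.221% of all genes were. Leaving out Day 4 replicate 2 (adjusted p = 0.0543), Day 6 replicate 1 (0.0619), replicate 2 (0.0583) or replicate 3 (0.0502), or the filter on signal (0.0622), ended this call while the difference stayed between -3.23 and -2.74. Stat3 was 0.81 higher than on Day 6 in the same array (adjusted p = 0.163), whereas the Zfp36 difference was -1.13 (adjusted p = 0.231) and that of Socs3 -0.77 (adjusted p = 0.212). Socs3 was tested only through Day 6 replicate 3 and the TH1834 array, where it was higher. Ccl2 and Stat3 therefore had differences of opposite sign with this treatment. The array also had the lowest epithelial marker mean, 5.13 against 5.96 to 6.79 on Day 6, and the highest signal of Cd68, a lysosomal protein of macrophages, at 7.51 against 4.32 to 5.21 on Day 6 and 3.49 in the control. The immune markers Lyz2 and Fcer1g were at 3.45 and 3.25, against 5.05 and 5.41 in the control. Both reached the level of 5 in the control array only, so the filter itself fixed that they lie below it elsewhere. Cd68 was under 5 in the control and reached the level only through arrays where it was higher. The part of either cell type in the result was not tested.

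With CBP30+CPTH2 none of the 7 members passed the threshold. limma called 0% of all genes, with 1408 genes and 3 members at an unadjusted p under 0.05, and the median difference of all genes was 0.15. The differences were -2.08 for Ccl2 (SE 0.46, adjusted p = 0.0991), -1.48 for Zfp36 (SE 0.42, adjusted p = 0.115) and -1.16 for Nfkbia (SE 0.23, adjusted p = 0.0799). The Stat3 difference was -0.07 (95% interval -0.62 to 0.47). Both combinations thus had Ccl2 and Zfp36 below every Day 6 array, with Stat3 within or above the Day 6 range. The share of all genes below every Day 6 array in both was not counted, so this describes values only. The epithelial marker mean with CBP30+CPTH2, 6.28, was within the Day 6 range. Cd68, at 6.48, was above its own Day 6 range, as it was in every inhibitor array (5.59 to 7.51). Lyz2 (2.87) and Fcer1g (3.17) were instead below their Day 6 ranges, 3.56 to 4.33 and 3.70 to 4.74. The mean over the 18 immune markers was 3.08, against 3.17 to 3.46 on Day 6. The part of these cell types in the values was not tested.

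With TH1834 it was Stat3 that lay low. Its difference from Day 6 was -1.55 (SE 0.24, 95% interval -2.087 to -1.003), with an adjusted p of 0.0677 that missed the threshold, and 0 of 7 members were called where 0.059% of all genes were. Stat3 was the single member at an unadjusted p under 0.05, among 946 genes. The median difference of all genes was 0.11 in this array; after each array was centred on its median the Stat3 difference was -1.67 and passed the threshold (adjusted p = 0.0377), whereas quantile normalization (0.0627) and leaving out single galactose arrays (0.0806 to 0.192) did not bring it past. Zfp36 differed by 0.05 (95% interval -0.89 to 0.99) and Ccl2 by -0.25 (-1.28 to 0.78), and both intervals are wide. None of the 6 tested NF-κB response genes was called, but their median difference was -0.47, beside 0.11 over all genes, and 0 of the 6 were positive. Birc2, Csf1 and Cx3cl1 were under 5 with TH1834 and could be tested only through arrays where they were higher, which tilts the TH1834 signs downward. The median of the list was lower still with C646+CPTH2 (-1.04, 1 of 6 positive) and CBP30+CPTH2 (-0.60, 2 of 6 positive). Csf1 and Cx3cl1 were under 5 in those arrays too. With C646, CBP30 and CPTH2 alone the median was -0.21, -0.28 and 0.01. A lower list median was thus not particular to TH1834. The epithelial marker mean with TH1834, 6.94, was above every galactose-only array, and its part in the Stat3 value was not tested.

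**Figure D4:**
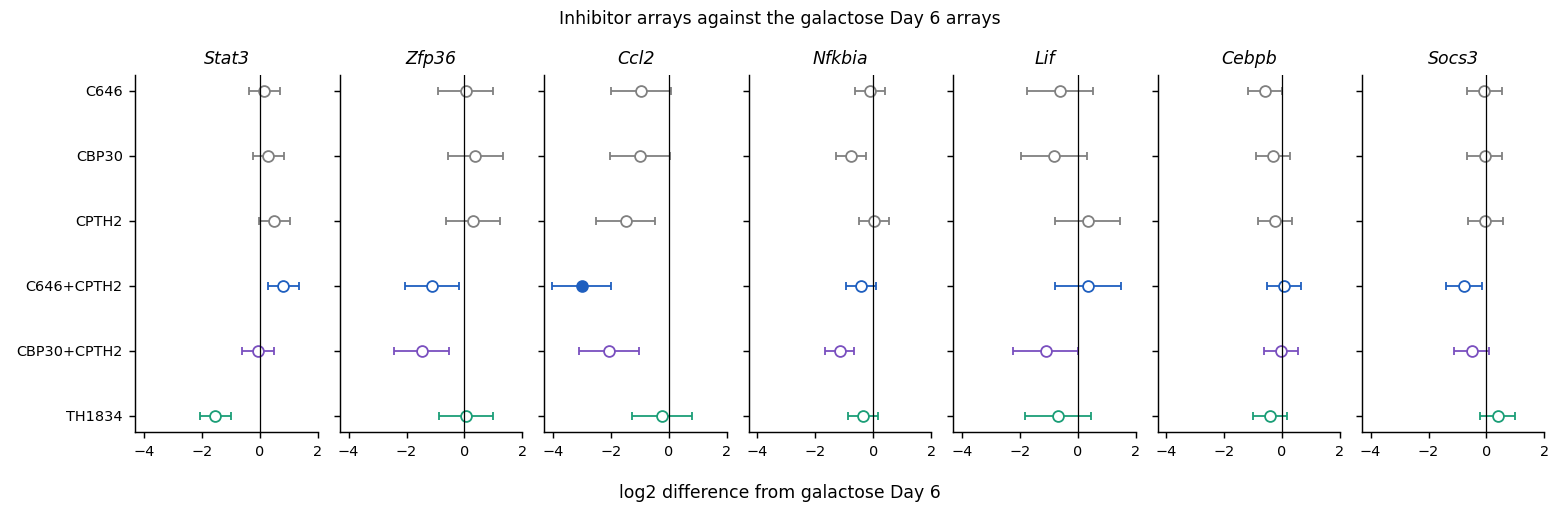
Log2 difference of each inhibitor array from the mean of 3 galactose Day 6 arrays (horizontal axis) for the 7 tested genes (panels) and 6 treatments (vertical axis); points are estimates, whiskers 95% intervals, and the filled point has an adjusted p under 0.05. Ccl2 with C646+CPTH2 (-3.01) is the filled point, and Stat3 lies below 0 with TH1834 (-1.55) and above 0 with C646+CPTH2 (0.81).

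TH1834 and the combinations, the treatments the study classed as effective, were set against each other directly. Relative to the mean of both combinations, TH1834 had Stat3 at -1.91 (SE 0.25, adjusted p = 0.0623), Ccl2 at 2.30 (SE 0.48, adjusted p = 0.139), Zfp36 at 1.35 (SE 0.44, adjusted p = 0.246) and Socs3 at 1.03 (SE 0.29, adjusted p = 0.197). Socs3 reached 5 only with TH1834 (5.26) and in Day 6 replicate 3 (5.21). It thus entered the test partly through the array that is high here, and its difference is not support of its own. The tally was 0 of 7 members called, where limma called 0.0295% of all genes, and 4 members and 894 genes had an unadjusted p under 0.05. The Stat3 value passed the threshold after median centring (adjusted p = 0.0299) but not after quantile normalization (0.0694) or on leaving out single galactose arrays (0.0565 to 0.153). When these 3 arrays were set as a group against the C646, CBP30 and CPTH2 arrays, in a fit that treats different compounds as replicates, 0 of 7 members and 0% of all genes were called by limma, with 285 genes and 1 member, Zfp36 at -1.09 (95% interval -1.86 to -0.32, adjusted p = 0.983), at an unadjusted p under 0.05. Nfkbia lay below every Day 6 array with TH1834 and with both combinations, and with CBP30 alone as well. The share of all genes that did so was not counted, so this is a description of values only.

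**Figure D5:**
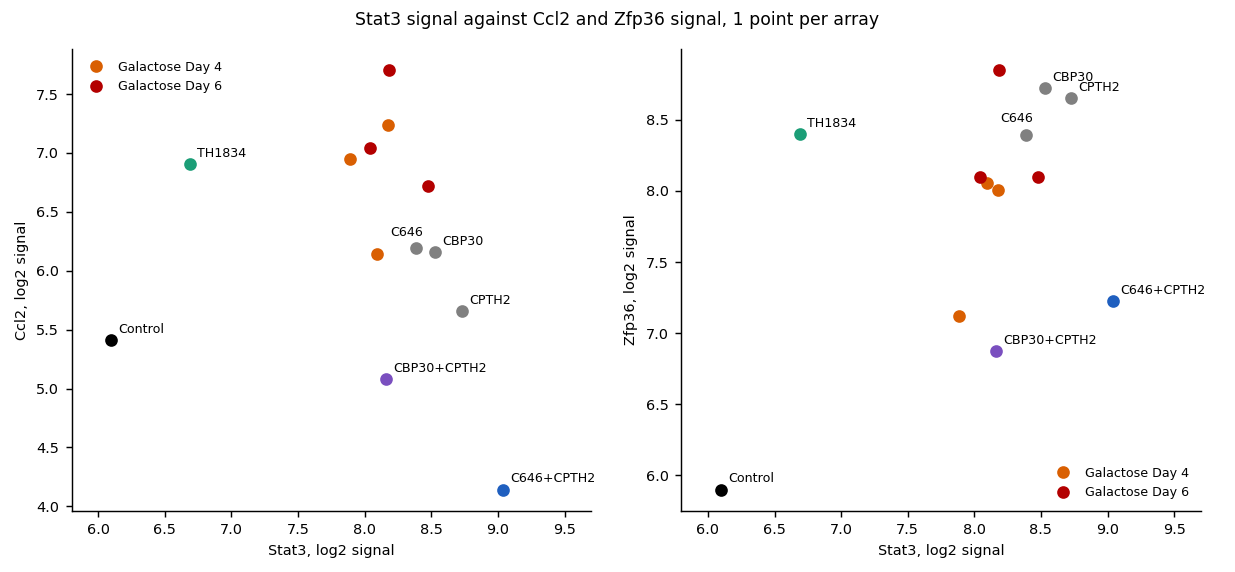
Log2 signal of Stat3 (horizontal axes) against Ccl2 (left, vertical axis) and Zfp36 (right, vertical axis), with 1 point per array. TH1834 lies at low Stat3 (6.69) with Ccl2 at 6.91 and Zfp36 at 8.40, whereas C646+CPTH2 and CBP30+CPTH2 lie at Stat3 9.04 and 8.16 with Ccl2 at 4.14 and 5.08.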

How the data were processed

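The deposited table held log2 signals of 36685 probe sets on 13 arrays, already processed by the authors; the normalization method is not given in the sources used here, so no depth or detection limit is known beyond the number of arrays. Probe sets were named through the platform annotation: 18511 had 1 gene symbol, 575 several and 17599 none, and for each of 18166 genes the probe set with the highest mean was used. Genes with a log2 signal of 5 or more in at least 1 array (6778) were tested with limma 3.58.1 in R 4.3.3 (lmFit and eBayes, a mean per group over all 13 arrays, 4 residual degrees of freedom, two-sided, Benjamini-Hochberg adjustment); the fit was checked on simulated data. The grouped inhibitor comparison was a separate limma fit, with TH1834 and the combinations as 1 group, the inhibitors alone as another and 8 residual degrees of freedom. The alternatives changed the filter, scaling, variance model, probe set rule and arrays. Beside the members, pathway genes named in the text were called in a comparison or were among the 3 of their list with the highest mean signal. Birc2, Csf1, Cx3cl1, Zfp36l1 and Zfp36l2 were instead named after their values were seen. The 5 genes most correlated with Stat3 and with Zfp36 were named as well. The members and lists were chosen with earlier results of these data known. No sequence of Ccl2, Lif or Cebpd is printed.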

Additional observations from a re-analysis of the deposited data

How the results depend on the processing

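Stat3 kept its call against the control under every alternative run, with adjusted p between 0.00319 and 0.0197 on Day 4 and between 0.00153 and 0.0141 on Day 6, and Zfp36 did so on Day 6 (0.0105 to 0.0428). On Day 4 the number of members called was 2, and it was 1 without the filter, with a filter at 4 and with replicates 2 and 3 only of both days; leaving out single arrays gave 1 to 2. On Day 6, 4 members in place of 2 were called at an adjusted p under 0.1 and with replicates 2 and 3 only. For C646+CPTH2 the 1 member called became 0 without the filter, and leaving out single arrays gave 0 to 1. At an adjusted p under 0.1, CBP30+CPTH2 had 2 calls, TH1834 had 1, and TH1834 against the combinations had 1. TH1834 also had 1 call, Stat3, after median centring and with a trended, robust variance, and so did TH1834 against the combinations under these settings, with a filter at 6 and with replicates 2 and 3 only. Apart from the changed thresholds and the removed arrays, the causes were not tested. Of 26 differences followed through 373 alternative values, 0 reversed, 13 lost and 11 gained the threshold. Of 51 other, mostly smaller differences, 33 of 739 alternative values changed sign, none from a difference above 0.345 in size. Replicate numbers are shared between the galactose days, but the deviations of same-numbered arrays correlated at 0.34, 0.08 and 0.25, so the numbers were not taken as pairs; with the replicate block 0 members were called between the days, as without it. The design has a lone control and lone inhibitor arrays, so those arrays' own spread is unmeasured.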
